A study of Mus musculus with 6 samples.

Results

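The interferon response genes described here are 42 genes of the interferon pathway, chosen by name as genes that interferon induces or that carry its signal, out of 52636 gene rows in the count table. All 42 had a row, and all 42 were among the 32496 genes that passed the filter on low counts and were tested. They were measured by bulk RNA sequencing of medullary thymic epithelial cells (mTEC), the epithelial cells of the inner thymus that display self antigens to developing T cells. Cells were sorted from thymi of C57BL/6 mice of 6 weeks, and no transgene or treatment was named for either group. Both groups were UEA+ (they bound the lectin UEA1), low for MHC class II and negative for CD80, Sca1 and CD63. The 3 libraries of tuft-like mTEC came from cells positive for CD117 and CD66a, and the 3 libraries of non-tuft-like mTEC came from cells negative for both. The non-tuft-like group is defined by the absence of these markers, and cells positive for only 1 of them belonged to neither group. Neither the labels nor the methods say whether the triplicates came from separate mice, so the p-values measure the spread between these libraries, which may be partly technical.

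Interferons are secreted proteins that alert cells to infection. Type I interferons, among them interferon beta, bind a receptor made of IFNAR1 and IFNAR2, and type III interferons bind a receptor that contains IFNLR1. Both receptors lead to phosphorylation of STAT2, which with IRF9 switches on interferon-stimulated genes through a DNA element called the ISRE. Interferon gamma acts through another element, called GAS. Medullary thymic epithelial cells are known to make interferon beta and to express interferon-stimulated genes in uninfected animals.

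The depth was 20097617 to 48369825 gene counts a library. Reads that fell on no annotated gene made up 34.4% to 52.5% of all reads in the non-tuft-like libraries. In tuft-like replicates 1, 2 and 3 they made up 61.6%, 47.6% and 19.7%. The labelled cell types were checked against marker genes. All 12 tuft cell markers were higher in tuft-like mTEC, among them the channel gene Trpm5, and 6 of 9 markers of mature mTEC were lower, among them Aire. Of 6 epithelial markers 1 was called, Foxn1, which was lower in tuft-like mTEC, and their summed level was 4512 to 5276 CPM without and 4814 to 11062 CPM with the tuft surface markers. Levels are in CPM, the reads of a gene scaled to a common library total by TMM, and a positive log2 fold change means a higher level in tuft-like mTEC. Genes were called at a false discovery rate (FDR) below 0.05 in edgeR's quasi-likelihood test. An exact permutation test of 3 libraries against 3 cannot give a two-sided p under 0.10. In such bulk samples, fewer cells that express a gene and less RNA of it per cell cannot be told apart.

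Most of the interferon response genes were not called different between the populations, and most fitted changes were below 2-fold. Of the 42 genes, 3 were called different by edgeR's quasi-likelihood test (7.14%, against 2.11% of all tested genes). Among genes averaging 10 CPM or more, the same fit called 3 of 39 members (7.69%), against 5.84% of all such genes. Irf8 and Ifit3 were lower in tuft-like mTEC, where 0.951% of all tested genes were called lower, and Rsad2 was higher, where 1.16% were called higher. The median log2 fold change of the 42 genes was -0.19, beside 0.02 over all tested genes, with 13 positive and 29 negative values. This gap was not kept in every fit. The medians of the 42 genes and of all genes were -0.18 and -0.17 with limma voom, -0.04 and -0.02 without non-tuft-like replicate 1, and -0.09 and -0.20 without tuft-like replicate 1. An absolute log2 fold change of at most 1 was measured for 36 of the 42 genes (85.7%), against 68.5% of all tested genes and 78.9% of those averaging 10 CPM or more. For 15 of the 42 genes the 95% interval of the log2 fold change lay wholly between -1 and 1. For the other genes a change of 2-fold or more in at least 1 direction lay within the interval. Tuft-like and non-tuft-like libraries were fully apart for 8 of the 42 genes (19.0%), against 16.0% of all tested genes and 28.1% of those averaging 10 CPM or more. Other settings gave more calls. DESeq2 called 6 of the 42 genes, 3 higher and 3 lower, where it called 8.56% of all genes, 4.50% as higher and 4.06% as lower. With the test limited to genes averaging 10 CPM or more, edgeR called 6 of 39 members, 3 higher and 3 lower, where it called 13.3% of all genes, 7.23% as higher and 6.07% as lower. In both cases these were Irf8, Ifit3 and Mx1 as lower and Rsad2, Oas2 and Samd9l as higher.

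**Figure D1:**
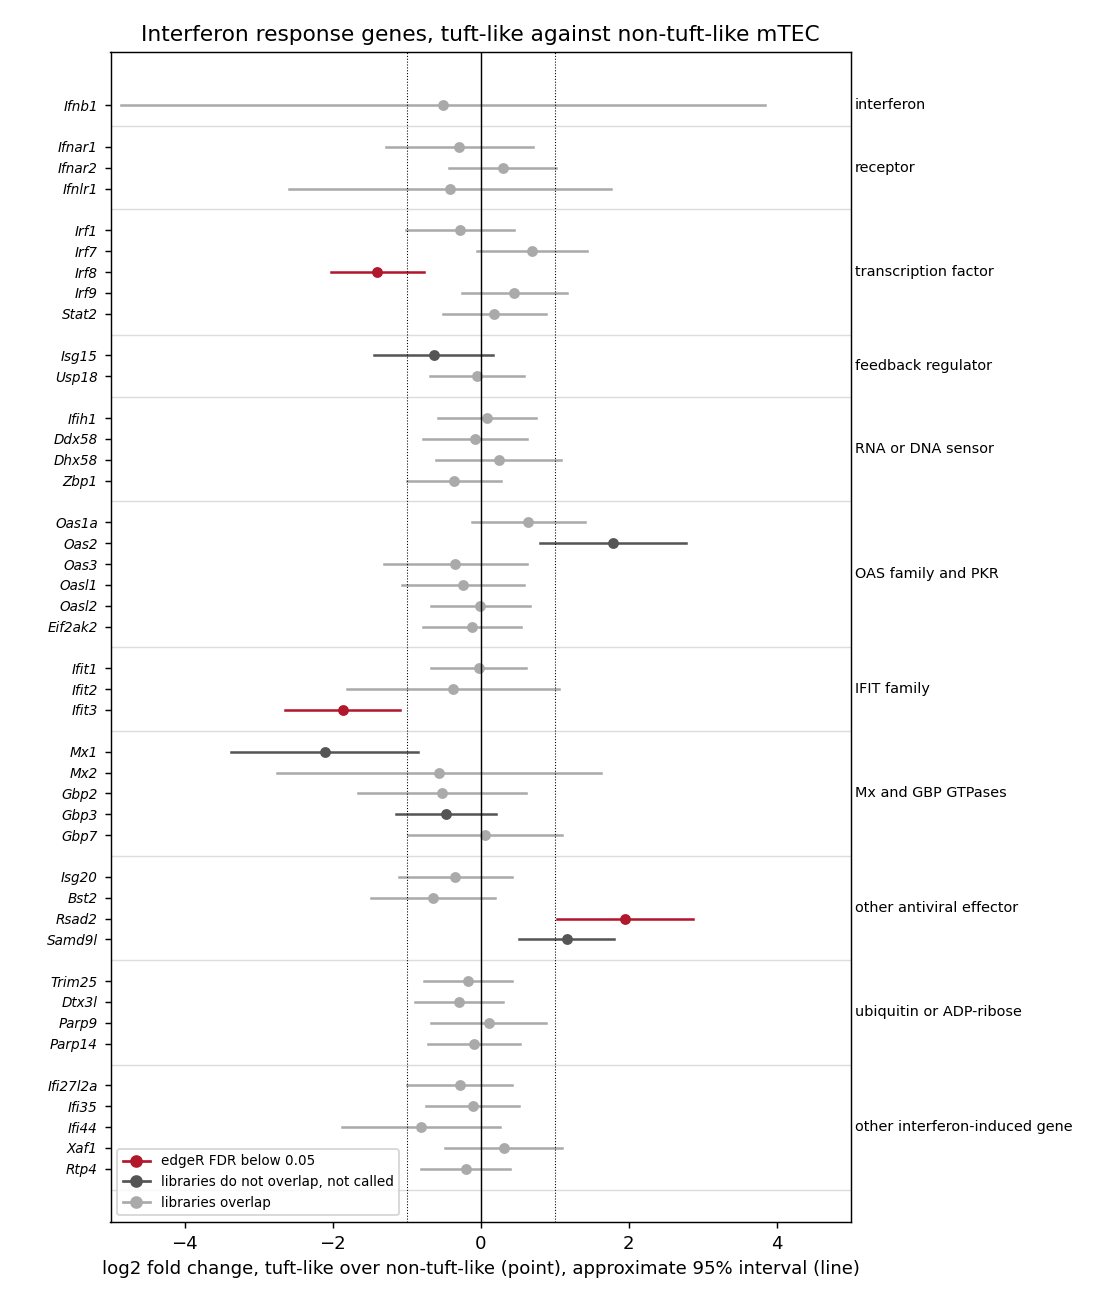
Log2 fold change (x axis, tuft-like over non-tuft-like) of each of the 42 genes (y axis, grouped by role), with bars for the 95% interval. Red marks called genes and dark grey the other genes without overlap. Most intervals include 0, while those of Ifit3, Irf8 and Mx1 lie below 0 and those of Rsad2, Oas2 and Samd9l lie above 0.

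The promoters of the 3 called genes are shown because their letters differ in the elements through which interferons act, together with that of Isg15, a widely studied interferon-stimulated gene. Each line holds the 250 bases before the RefSeq start of the gene in GRCm38.p6, written 5′ to 3′ on the strand of the gene. The windows are chr19:34583279-34583528 (+) for Ifit3, chr12:26456453-26456702 (-) for Rsad2, chr8:120736108-120736357 (+) for Irf8 and chr4:156200819-156201068 (-) for Isg15. Capitals mark the ISRE core, searched on both strands as GAAA, any 2 bases and GAAA (TTTC, any 2 bases and TTTC on the other strand), in Ifit3, Rsad2 and Isg15, and the GAS letters, searched as TTCNNNGAA, which reads alike on both strands, in Irf8.
Ifit3: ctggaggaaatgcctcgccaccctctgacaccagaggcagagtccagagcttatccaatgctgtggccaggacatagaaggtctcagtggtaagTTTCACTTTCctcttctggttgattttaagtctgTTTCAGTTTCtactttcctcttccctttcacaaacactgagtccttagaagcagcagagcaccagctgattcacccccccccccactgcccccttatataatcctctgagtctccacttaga
Rsad2: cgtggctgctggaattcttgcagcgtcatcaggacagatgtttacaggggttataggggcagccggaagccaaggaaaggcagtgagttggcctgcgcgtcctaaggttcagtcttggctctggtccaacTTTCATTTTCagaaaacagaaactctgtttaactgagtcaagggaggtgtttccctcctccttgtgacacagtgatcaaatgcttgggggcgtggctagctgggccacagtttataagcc
Irf8: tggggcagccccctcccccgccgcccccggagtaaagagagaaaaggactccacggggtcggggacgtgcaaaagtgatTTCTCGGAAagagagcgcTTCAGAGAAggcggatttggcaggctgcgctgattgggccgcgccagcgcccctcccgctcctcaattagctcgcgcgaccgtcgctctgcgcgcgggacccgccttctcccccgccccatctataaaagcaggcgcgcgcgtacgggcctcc
Isg15: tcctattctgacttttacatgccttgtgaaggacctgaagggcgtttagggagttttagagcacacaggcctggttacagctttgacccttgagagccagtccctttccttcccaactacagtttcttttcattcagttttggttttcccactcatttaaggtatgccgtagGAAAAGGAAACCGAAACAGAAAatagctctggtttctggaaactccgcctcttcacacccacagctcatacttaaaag
Ifit3, which was lower in tuft-like mTEC, held 2 ISRE cores, at 156 to 147 and 122 to 113 bases before the start. Rsad2, which was higher, held 1, at 120 to 111 bases before the start. Both genes held matches to the same letters, and a relation of such matches to the direction of change was not tested. In Irf8 no ISRE core was found in this window, which held 2 GAS matches, at 171 to 163 and 153 to 145 bases before the start. Isg15 held 3 ISRE cores that overlap one another. Promoter windows were matched for 32 of the 42 genes. The ISRE core was found in 11 of these 32 (34.4%) and in 3.46% of all 27025 genes with a window, and the GAS letters in 9 of the 32 (28.1%) and in 8.13% of all. A match describes the letters only and is not a bound site.

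The ligand of the list, Ifnb1 (interferon beta), was close to the limit of detection. Its counts were 45, 36 and 16 in the non-tuft-like libraries and 31, 21 and 0 in the tuft-like libraries, in order of replicate. The 0 allows up to 0.0653 CPM before TMM scaling, a floor of 3 counts that covers counting error only. As CPM per kb of exon, Ifnb1 exceeded the 99th percentile of olfactory receptor genes in 1 of the 6 libraries. Olfactory receptor genes served as a reference for low counts. Since mTEC can express genes of other tissues, how much of that reference is expression and how much is background reads was not tested. Its log2 fold change was -0.51 with a 95% interval of -4.86 to 3.84, so no difference was detectable at this depth. Of 20 further interferon genes, 6 passed the filter and edgeR called 0 (0 had an unadjusted p below 0.05). Limma voom also called 0 of the 6, and DESeq2, which gave an adjusted p for 1 of them, did not call it. Ifnl3, a type III interferon and the highest of them, had 7.13, 1.38 and 2.16 CPM in non-tuft-like libraries and 3.76, 1.37 and 0 CPM in tuft-like ones. Ifng, which encodes interferon gamma and is mainly a product of lymphocytes, had no count in any of the 6 libraries, which allows up to 0.149 CPM in the shallowest.

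The type I receptor was expressed in both populations. Ifnar1, its low affinity chain, had 176, 116 and 73.4 CPM in non-tuft-like libraries and 54.5, 77.6 and 167 CPM in tuft-like ones, in order of replicate (122 ± 51.6 against 99.8 ± 59.6, mean ± SD, n = 3). The libraries overlapped widely, and the log2 fold change was -0.29 (95% interval -1.28 to 0.71). Ifnar2, the high affinity chain that recruits the kinase JAK1, had 48.8, 49.9 and 33.6 CPM in non-tuft-like libraries and 39.8, 50.4 and 72.5 CPM in tuft-like ones. Its log2 fold change of 0.30 (95% interval -0.43 to 1.02) had the opposite sign, and neither chain was called. Ifnlr1, the specific chain of the type III receptor, had 2.08, 8.60 and 12.0 CPM in non-tuft-like libraries and 10.001, 5.88 and 1.22 CPM in tuft-like ones. Within each population its level was highest in the library with the largest share of reads on no gene and lowest in that with the smallest. Ifnlr1 exceeded the olfactory receptor level in 2 of the 6 libraries, and the part of reads from outside genes in its level was not tested.

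Of the 5 transcription factors, Irf8 was called and the others overlapped between the populations. Irf8 (ENSMUSG00000041515, mm10 chromosome 8, 120736358 to 120756694) is best known for directing the development of dendritic cells, macrophages and B cells, and is induced by interferon gamma. It had 137, 169 and 149 CPM in non-tuft-like libraries and 44.1, 55.6 and 73.2 CPM in tuft-like ones, in order of replicate. Every tuft-like library lay below every non-tuft-like library, and the mean was 2.63-fold lower in tuft-like mTEC. The log2 fold change was -1.39 (SE 0.29, 95% interval -2.03 to -0.76, edgeR quasi-likelihood FDR 0.0334). Leaving out single libraries kept the direction but ended this call in 5 of 6 cases. The edgeR FDR was 0.0704, 0.206 and 0.0637 without non-tuft-like replicates 1, 2 and 3, 0.0694 and 0.207 without tuft-like replicates 1 and 2, and 0.0145 without tuft-like replicate 3.

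Markers of the cell types that use Irf8 were read beside it. The 11 macrophage and conventional dendritic cell markers summed to 235 to 362 CPM in non-tuft-like libraries and 161 to 235 CPM in tuft-like ones, mostly from Lyz2, and none was at 0 in all libraries. Only Cd68, a lysosomal protein of macrophages, was called among them, as lower (32.2, 37.1 and 48.7 against 3.60, 4.44 and 3.92 CPM). Of the 11 log2 fold changes, 4 were positive and 7 negative (median -0.32). Ptprc, which encodes CD45, had 3.41, 10.9 and 11.7 CPM in non-tuft-like libraries and 33.7, 27.6 and 8.31 CPM in tuft-like ones. Its libraries overlapped and it was not called (log2 fold change 1.42, edgeR FDR 0.610). As CPM per kb of exon, Ptprc (18313 exon bases) stayed below the 99th percentile of olfactory receptor genes in every library. Within each population it was highest in the library with the largest share of reads on no gene and lowest in that with the smallest. The part of reads from outside genes in the level of Ptprc was not tested. Siglech, the defining marker of plasmacytoid dendritic cells, reached at most 4.89 CPM. The 6 B cell markers summed to 18.9 to 27.4 CPM in non-tuft-like libraries and 69.6 to 103 CPM in tuft-like ones. Cd79b alone was called among them (higher, log2 fold change 3.20, edgeR FDR 0.00317) and made up most of this sum in tuft-like mTEC, while 4 of the 6 log2 fold changes were negative (median -0.13). Ms4a1, a defining marker of B cells, stayed below 10 CPM in every library. The part of such cells in the level of Irf8 was not tested.

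Irf7, which drives the production of type I interferon, had 284, 241 and 171 CPM in non-tuft-like libraries and 252, 467 and 409 CPM in tuft-like ones. It had the largest positive difference of the transcription factors, a log2 fold change of 0.70 (95% interval -0.05 to 1.44, edgeR FDR 0.636), and its libraries overlapped. Irf9, the DNA-binding partner of STAT2, had 134, 139 and 109 CPM in non-tuft-like libraries and 128, 142 and 253 CPM in tuft-like ones. The high value in tuft-like replicate 3 stood above the other 5 libraries, and the log2 fold change of 0.45 was not called. Stat2 had 159, 162 and 111 CPM in non-tuft-like libraries and 112, 165 and 213 CPM in tuft-like ones, a log2 fold change of 0.18. Irf1, an early target of interferon gamma, had 294, 226 and 190.0 CPM in non-tuft-like libraries and 128, 196 and 258 CPM in tuft-like ones, a log2 fold change of -0.29. For both Stat2 and Irf1 the populations overlapped and the 95% interval included 0.

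The feedback regulators Isg15 and Usp18 act together, since ISG15 is a ubiquitin-like protein and USP18 both removes it from its targets and blocks the type I receptor. Isg15 had 40.9, 39.3 and 44.1 CPM in non-tuft-like libraries and 19.0, 22.2 and 38.8 CPM in tuft-like ones. These did not overlap, by a margin of less than 1 CPM, and the log2 fold change of -0.63 was not called (95% interval -1.44 to 0.17, edgeR FDR 0.835). Usp18 had 343, 334 and 302 CPM in non-tuft-like libraries and 243, 322 and 381 CPM in tuft-like ones, a log2 fold change of -0.05 (95% interval -0.69 to 0.59). As CPM per kb of exon, Usp18 was the second highest of the 42 genes in both populations, at 117 and 113.

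None of the 4 cytosolic sensors was called by edgeR, DESeq2 or limma voom, and 0 had an unadjusted p below 0.05. Zbp1, which senses Z-form nucleic acids, had 84.9, 81.2 and 69.4 CPM in non-tuft-like libraries and 44.8, 71.4 and 66.8 CPM in tuft-like ones (log2 fold change -0.36). Dhx58, which encodes the RIG-I-like receptor LGP2, had 38.8, 47.3 and 20.6 CPM in non-tuft-like libraries and 33.6, 40.3 and 52.4 CPM in tuft-like ones (log2 fold change 0.24). Both sets of libraries overlapped. Ifih1, which encodes MDA5, and Ddx58, which encodes RIG-I, had log2 fold changes of 0.09 and -0.08. The 95% intervals of these RNA sensors, -0.58 to 0.75 and -0.78 to 0.62, lay within a change of 2-fold.

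The 2-5A synthetases, which activate RNase L on double-stranded RNA, had log2 fold changes of both signs. Oas1a had 85.4, 54.4 and 61.0 CPM in non-tuft-like libraries and 67.4, 98.0 and 148 CPM in tuft-like ones, a log2 fold change of 0.64 (edgeR FDR 0.754) with overlapping libraries. Oasl2, a ubiquitin-like relative, had 305, 267 and 259 CPM in non-tuft-like libraries and 200.02, 272 and 357 CPM in tuft-like ones. Its log2 fold change was -0.0038, with a 95% interval of -0.67 to 0.66. Oas2 was singled out after its values were seen. It had 8.01, 28.4 and 17.0 CPM in non-tuft-like libraries and 53.4, 68.4 and 63.3 CPM in tuft-like ones, and every tuft-like library lay above every non-tuft-like library. The log2 fold change of 1.79 (SE 0.45, 95% interval 0.80 to 2.78) was not called by edgeR (FDR 0.0825), and 5 of 8 other fits on all libraries called it. Oas3, Oasl1 and Eif2ak2, which encodes the kinase PKR, had log2 fold changes of -0.34, -0.24 and -0.12. Copies of the Oas1 genes lie side by side in the genome, so reads could be split among them in counting.

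The IFIT proteins bind foreign RNA, and their genes lie next to each other on chromosome 19. Ifit1 had 163, 116 and 104 CPM in non-tuft-like libraries and 100.4, 144 and 133 CPM in tuft-like ones, a log2 fold change of -0.02 (95% interval -0.67 to 0.62). Ifit3 (ENSMUSG00000074896, mm10 chromosome 19, 34583531 to 34588731) had 64.2, 66.7 and 44.7 CPM in non-tuft-like libraries and 12.3, 20.8 and 15.1 CPM in tuft-like ones. The lowest non-tuft-like value was above 2 times the highest tuft-like value, and the mean was 3.65-fold lower in tuft-like mTEC. The log2 fold change of Ifit3 was -1.87 (SE 0.35, 95% interval -2.65 to -1.08, edgeR quasi-likelihood FDR 0.0223). This call was lost without non-tuft-like replicate 1 (edgeR FDR 0.0813), non-tuft-like replicate 2 (0.136) or tuft-like replicate 1 (0.0536), with the direction kept. Ifit3b is a near copy of Ifit3, so reads that align to both could be missing from their counts. Ifit3b had 47.3, 12.8 and 5.40 CPM in non-tuft-like libraries and 7.19, 12.0 and 6.43 CPM in tuft-like ones. The high value of non-tuft-like replicate 1 stood alone, and the log2 fold change of -1.35 was not called (edgeR FDR 0.801). Ifit2 was low, between 4.91 and 15.7 CPM in all 6 libraries, with a log2 fold change of -0.37.

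Of the 5 Mx and GBP GTPases, which act against viruses and intracellular microbes, edgeR called 0, with Mx1 alone at an unadjusted p below 0.05 and called by DESeq2. Gbp3 had 54.5, 39.9 and 45.6 CPM in non-tuft-like libraries and 30.2, 32.04 and 38.7 CPM in tuft-like ones, without overlap (log2 fold change -0.47, 95% interval -1.14 to 0.20). Gbp7 had 62.4, 33.3 and 31.7 CPM in non-tuft-like libraries and 30.0, 25.5 and 77.2 CPM in tuft-like ones, so 1 library of each population stood above the rest. Gbp2 had a log2 fold change of -0.52. Mx1 was singled out after its values were seen, with 19.0, 23.4 and 21.5 CPM in non-tuft-like libraries and 4.63, 2.78 and 7.43 CPM in tuft-like ones. It had the largest negative log2 fold change of the 42 genes, -2.11 (SE 0.57, 95% interval -3.37 to -0.84), and was not called by edgeR (FDR 0.115). Its level exceeded that of olfactory receptor genes in 4 of the 6 libraries. C57BL/6 mice carry an Mx1 allele that makes no functional protein. Mx2, annotated as a polymorphic pseudogene, stayed below 10 CPM in all libraries (log2 fold change -0.56).

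Among the other antiviral effectors Rsad2 was higher in tuft-like mTEC. Rsad2 (ENSMUSG00000020641, mm10 chromosome 12, 26442746 to 26456452) encodes viperin, an enzyme that makes a chain-terminating nucleotide. It had 9.97, 21.8 and 10.96 CPM in non-tuft-like libraries and 47.1, 44.8 and 73.1 CPM in tuft-like ones. The populations did not overlap, and the mean was 3.86-fold higher in tuft-like mTEC. The log2 fold change of Rsad2 was 1.95 (SE 0.42, 95% interval 1.02 to 2.87, edgeR quasi-likelihood FDR 0.0415). Its call was lost without non-tuft-like replicates 1 or 3 (edgeR FDR 0.149 and 0.145) and without tuft-like replicates 1, 2 or 3 (0.0582, 0.0906 and 0.0918), and was kept without non-tuft-like replicate 2 (0.0351). Cmpk2, the neighbour of Rsad2 that supplies its substrate, had 52.8, 38.9 and 40.5 CPM in non-tuft-like libraries and 47.4, 61.8 and 69.6 CPM in tuft-like ones, and was not called (log2 fold change 0.44, edgeR FDR 0.984).

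Samd9l, a translation inhibitor, was also singled out after its values were seen. It had 42.8, 47.9 and 32.3 CPM in non-tuft-like libraries and 77.2, 89.4 and 108 CPM in tuft-like ones, without overlap. The log2 fold change of 1.16 (SE 0.29, 95% interval 0.52 to 1.80) was not called by edgeR (FDR 0.0823), and 5 of 8 other fits on all libraries called it. Isg20, an RNA exonuclease, had 95.2, 65.5 and 63.3 CPM in non-tuft-like libraries and 43.3, 47.3 and 86.2 CPM in tuft-like ones (log2 fold change -0.34). Bst2, which encodes the virus tether tetherin, had 56.8, 35.9 and 30.9 CPM in non-tuft-like libraries and 21.2, 22.4 and 35.5 CPM in tuft-like ones (log2 fold change -0.64, edgeR FDR 0.859). For both the highest tuft-like library lay among the non-tuft-like libraries.

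**Figure D2:**
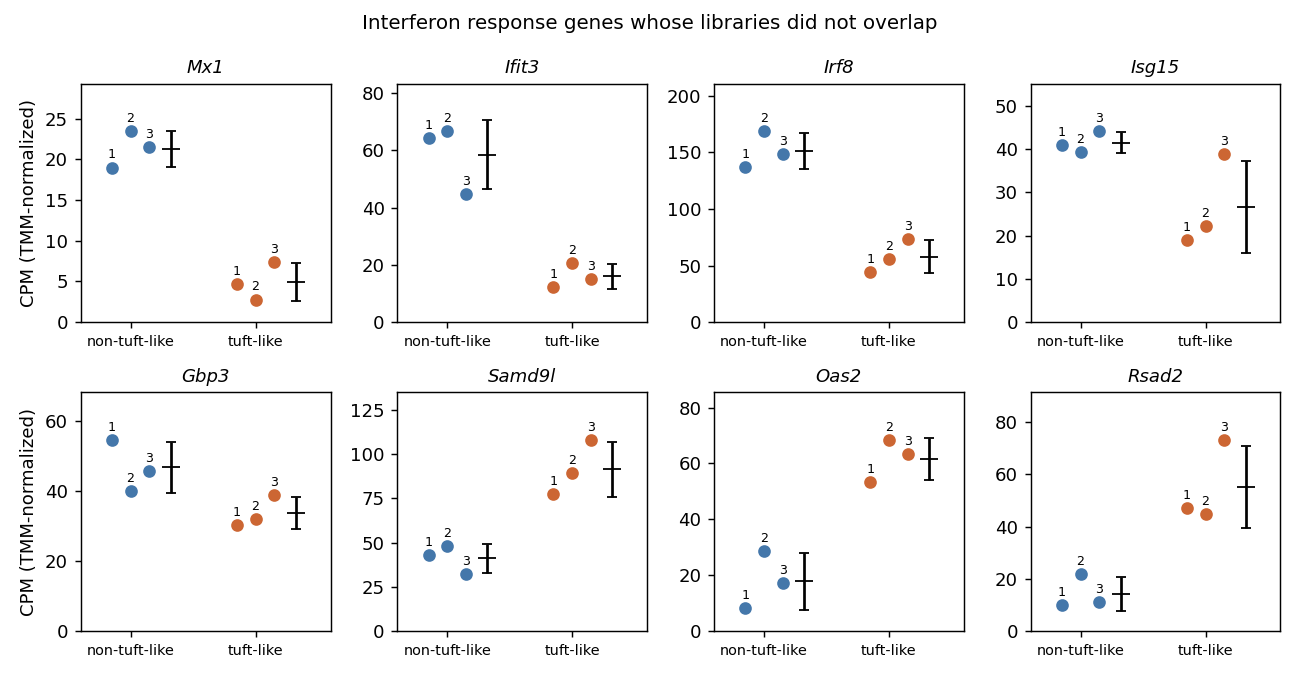
CPM (y axis) of the 8 genes whose libraries did not overlap, 1 panel per gene, with 1 point per library, marked by its replicate number, and a black bar for the mean ± SD of each population (n = 3). Irf8, Isg15, Ifit3, Mx1 and Gbp3 lie lower in tuft-like mTEC and Oas2, Rsad2 and Samd9l lie higher, and the gap is narrow for Isg15 and Gbp3.

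The 4 genes of ubiquitin and ADP-ribose signalling had log2 fold changes between -0.30 and 0.11. Trim25, the ubiquitin ligase that activates RIG-I, had 102, 90.7 and 70.8 CPM in non-tuft-like libraries and 72.8, 76.8 and 83.8 CPM in tuft-like ones, a log2 fold change of -0.17. Parp9, which works with the ubiquitin ligase DTX3L, had 82.7, 52.2 and 44.1 CPM in non-tuft-like libraries and 54.7, 48.5 and 89.7 CPM in tuft-like ones, a log2 fold change of 0.11. Libraries overlapped for both. Dtx3l and Parp14 had log2 fold changes of -0.30 and -0.09. Dtx3l and Parp9 overlap by 458 exon bases on opposite strands, and without a stated strand setting their reads in this stretch cannot be told apart.

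Among the remaining genes, Ifi27l2a, a small mitochondrial membrane protein gene, had 231, 286 and 238 CPM in non-tuft-like libraries and 147, 182 and 292 CPM in tuft-like ones. Its transcript is short, and as CPM per kb of exon it was the highest of the 42 genes in both populations, at 544 and 446. Ifi35 had 131, 106 and 120.2 CPM in non-tuft-like libraries and 83.5, 107 and 142 CPM in tuft-like ones. Both overlapped, with log2 fold changes of -0.28 and -0.11. Ifi44, Xaf1 and Rtp4 had log2 fold changes of -0.81, 0.31 and -0.20, and none of them was called.

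**Figure D3:**
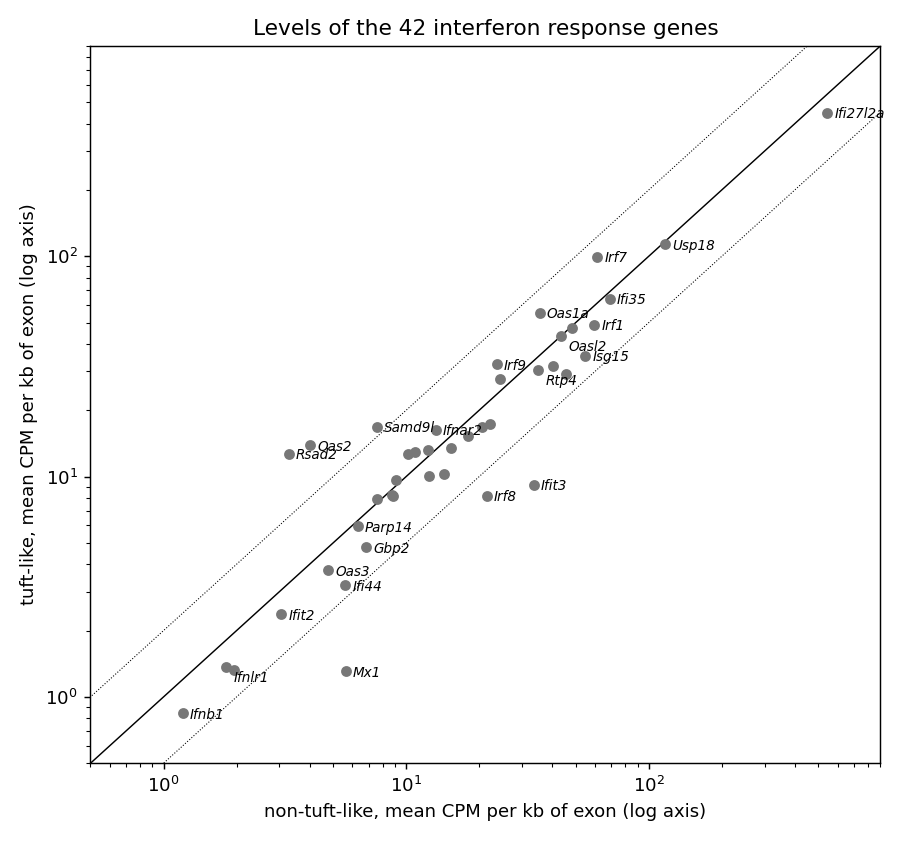
Mean level of each of the 42 genes as CPM per kb of exon in non-tuft-like (x axis) and tuft-like mTEC (y axis), both on log axes, with a solid line for equal levels and dotted lines for 2-fold differences. Ifi27l2a and Usp18 are highest, and Ifit3, Irf8, Mx1, Rsad2, Oas2 and Samd9l lie outside the dotted lines.

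The levels of the 42 genes also differed between the libraries of a population. Tuft-like replicate 3 was the highest of its population for 29 of the 42 genes (69.0%), against 61.1% of all tested genes averaging 10 CPM or more. Non-tuft-like replicate 3 was the highest of its population for 4 of the 42 genes (9.52%), against 20.1% of those genes. Its median log2 ratio to the mean of its population was -0.27 for the 42 genes and -0.14 for those genes. The median coefficient of variation of the 42 genes was 20.6% over non-tuft-like and 30.0% over tuft-like libraries, beside 22.4% and 33.0% for genes averaging 10 CPM or more. The spread within each population was thus close to that of other genes, while non-tuft-like replicate 3 lay lower for the 42 genes than for other genes. The same 2 medians were 0.35 and 0.26 in tuft-like replicate 3, and -0.36 and -0.31 in tuft-like replicate 1. Within each population both medians fell as the share of reads on no gene rose. The part of this share in the values was not tested.

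Other genes of the pathway were read from lists that were chosen with earlier results of these data known. Of 15 receptor chain and JAK-STAT genes, 4 had an unadjusted edgeR p below 0.05. The share was 8.97% over all tested genes and 21.7% over those averaging 10 CPM or more. EdgeR called 0 of the 15, DESeq2 called 1 higher and 1 lower, and limma voom called 1 lower. The highest was Stat3, which carries signals of the interleukin 6 family, with 739, 703 and 665 CPM in non-tuft-like libraries and 288, 323 and 399.6 CPM in tuft-like ones. Its libraries did not overlap (log2 fold change -1.06, SE 0.29, edgeR FDR 0.126), and DESeq2 called it (adjusted p = 0.000269). Libraries did not overlap for 1 gene that was higher and 4 that were lower of the 15 (16.0% of all tested genes and 28.1% of those averaging 10 CPM or more did not overlap). Tyk2, a kinase of the type I receptor, was the higher one, with 50.6, 41.2 and 65.2 CPM against 84.3, 123.2 and 94.0 CPM (log2 fold change 0.94, edgeR FDR 0.205). The lower ones were Stat3, Crebbp and the interferon gamma receptor chains Ifngr1 and Ifngr2, with log2 fold changes of -0.85 and -0.66 for the receptor chains, and edgeR called none of these.

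Of 14 tested sensing genes upstream of interferon, edgeR called 1, as higher, where it called 1.16% of all tested genes higher. Tlr3, the endosomal receptor for double-stranded RNA, had 22.5, 10.8 and 12.6 CPM in non-tuft-like libraries and 52.3, 61.9 and 77.5 CPM in tuft-like ones, and every tuft-like library was above every non-tuft-like library. Its log2 fold change was 2.06 (SE 0.38, edgeR FDR 0.0196). The call of Tlr3 was lost without non-tuft-like replicate 2 (edgeR FDR 0.0961), non-tuft-like replicate 3 (0.0640) or tuft-like replicate 2 (0.0702). Tmem173, which encodes STING, was the highest of the list, with 203, 185 and 115 CPM against 89.2, 96.9 and 146 CPM, and overlapped.

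Of 53 tested further interferon-induced genes, edgeR called 1, as lower, where it called 0.951% of all tested genes lower. The unadjusted edgeR p was below 0.05 for 16, against 8.97% of all tested genes and 21.7% of those averaging 10 CPM or more. DESeq2 called 11 of the 53 genes lower and 1 higher, against 4.06% and 4.50% of all genes it tested. Cxcl10, a chemokine that attracts activated T cells, had 129, 89.4 and 105 CPM in non-tuft-like libraries and 16.9, 8.01 and 15.8 CPM in tuft-like ones, 7.96-fold lower in tuft-like mTEC. Its log2 fold change was -2.99 (SE 0.36, edgeR FDR 0.00186), and the call held without any 1 library (edgeR FDR up to 0.00696). The libraries of 15 genes of this list lay lower in tuft-like mTEC without overlap (8.85% of all tested genes did) and those of 5 lay higher (7.18%). Among the 48 genes of the list averaging 10 CPM or more, these numbers were 13 and 5, where 15.9% and 12.2% of all such genes lay lower and higher. Of those 15, the others were the chemokines Cxcl9 and Cxcl11, the GTPases Gbp4, Gbp5, Gbp6, Gbp9, Iigp1, Tgtp2 and Ifi47, and Ifi203, Ifi204, Ifitm2, Ifitm3 and Trim30a. The 5 were Parp12, Nmi, Adar, Lgals9 and Tor3a. Ifitm3, which blocks virus entry, was the highest of the list, with 813, 877 and 826 CPM against 187, 188 and 422 CPM (log2 fold change -1.66, edgeR FDR 0.0614). It was called in 7 of 8 other fits on all libraries, and in 1 of 6 fits with 1 library left out.

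Of 11 antigen presentation genes induced by interferon gamma, edgeR called 2, both lower in tuft-like mTEC, where it called 0.951% of all tested genes lower. In the same fit 5.84% of genes averaging 10 CPM or more were called in either direction. All 11 log2 fold changes were negative (median -0.51), as were 15928 of 32496 over all tested genes. Ciita, the master regulator of MHC class II genes, had 170, 155 and 199 CPM in non-tuft-like libraries and 19.5, 16.7 and 30.6 CPM in tuft-like ones (log2 fold change -2.97, SE 0.32, edgeR FDR 0.00114), and its call held without any 1 library. Both populations were sorted as low for MHC class II protein, but edgeR called the class II genes H2-Aa, H2-Ab1 and Cd74 lower in tuft-like mTEC (log2 fold changes -2.01, -2.14 and -2.35, FDR 0.0372, 0.0400 and 0.0372). The mature mTEC markers Aire and Cd40 were lower too (log2 fold changes -3.83 and -3.61), and their part in the values of this list was not tested. Nlrc5, which regulates MHC class I genes, had 121, 155 and 132 CPM against 59.8, 50.0 and 56.5 CPM (log2 fold change -1.29, SE 0.26, edgeR FDR 0.0301). This call was lost without non-tuft-like replicates 1, 2 or 3 (edgeR FDR 0.0733, 0.234 and 0.0696) or tuft-like replicate 2 (0.233). B2m, the light chain of MHC class I, was the highest, with 2525, 2759 and 2257 CPM against 1433, 1403 and 2406 CPM, and overlapped.

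**Figure D4:**
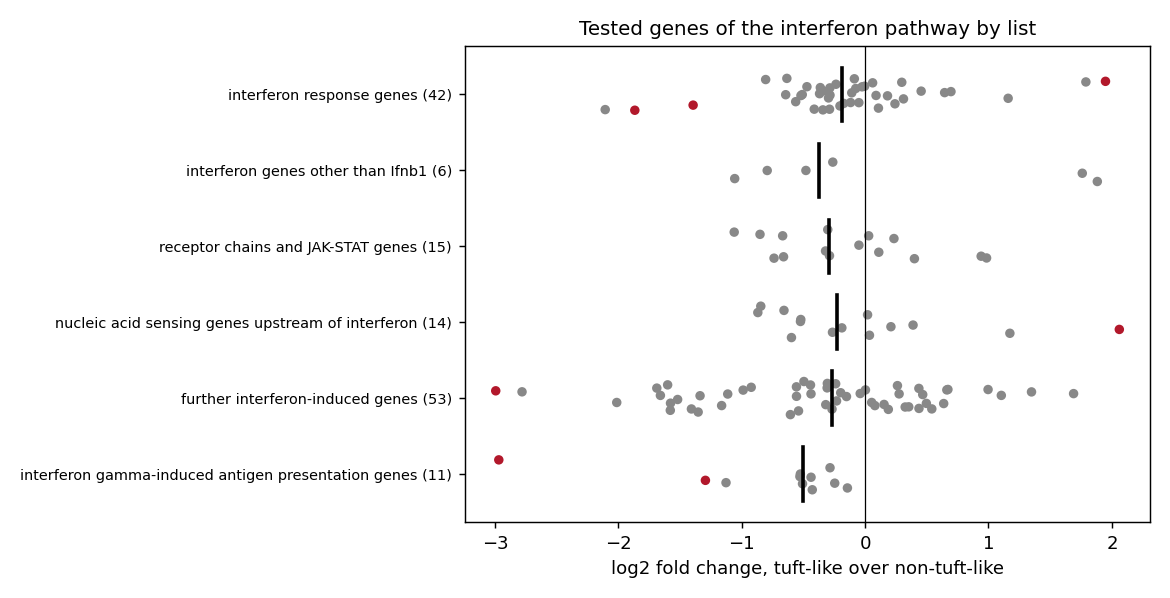
Log2 fold changes (tuft-like over non-tuft-like) of the tested genes of the 42 interferon response genes and of the pathway lists, 1 point per gene, with a line for the median of each list and called genes in red. The median is -0.19 for the 42 interferon response genes and -0.51 for the antigen presentation genes, where every value is below 0.

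The levels of the remaining marker lists bear on which other cells the libraries could hold. The 11 thymocyte markers summed to at most 44.4 CPM in any library, and of the 10 tested edgeR, DESeq2 and limma voom called 0, with 0 at an unadjusted p below 0.05. The 7 fibroblast markers summed to 48.4 to 76.8 CPM in non-tuft-like libraries and 38.8 to 197 CPM in tuft-like ones, and the same tools called 0, with 0 at an unadjusted p below 0.05. All 7 log2 fold changes were positive (median 1.17), and 2 of the 7 genes lay higher in tuft-like libraries without overlap. In each population the highest fibroblast sum was in the library with the largest share of reads on no gene. The lowest tuft-like sum was in the library with the smallest share, and the part of this share in the sums was not tested. The 6 endothelial markers summed to 42.8 to 68.9 and 174 to 357 CPM, with Tek called higher in tuft-like mTEC. All 6 log2 fold changes were positive (median 1.07). Of 7 tested markers of plasmacytoid dendritic cells edgeR called 1 higher, Spib, which tuft-like and microfold-like epithelial cells also express. DESeq2 and limma voom each called 2 of them higher. The 8 markers of this list summed to 546 to 662 CPM in non-tuft-like libraries and 1046 to 1638 CPM in tuft-like ones. A single gene of the list reached 1051 CPM. The list includes Spib and Bst2, itself an interferon response gene, and neither defines plasmacytoid dendritic cells. Siglech, the defining marker, was low in every library. The part of such other cells in the interferon response values was not tested.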

How the data were processed

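Bulk RNA was sequenced from 3 tuft-like and 3 non-tuft-like libraries, grouped by their titles. Per the labels and the methods, the authors made libraries with an ultra-low input kit, used Trimmomatic 0.36 for trimming and STAR 2.7.3a for alignment to mm10, and deposited whole-read counts per gene from HTSeq, without normalization. The strand setting and annotation release are not given in the sources used here. Identifiers were matched to GENCODE M21 (99.7% of gene rows). Rows for reads on no single gene stayed out of library sizes. The 92 ERCC rows held 0 counts.

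Low counts were removed by filterByExpr at its defaults of 10 per library and 15 in total. After TMM scaling, edgeR 4.0.16 was run (quasi-likelihood F-test, Benjamini-Hochberg over 32496 genes, R 4.3.3). Each standard error is approximate, the size of the log2 change over the root of its F statistic. The script was tested on simulated data. A count of 0 allows up to 3 counts, or 0.0620 to 0.149 CPM. Since no molecular identifiers were used, such limits cover counting error only. No pair of libraries shared equal counts in more than 0.682% of genes.

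Values in every library are given for called genes, the ligand, receptors, transcription factors and the 2 members of each role with the highest mean CPM per kb of exon, and for called genes and the highest gene of each pathway list. The 42 genes and all lists were chosen with earlier results of these data known. Alternatives were RLE factors, library size only, DESeq2 1.42.0, limma voom 3.58.1, no filter, a mean of at least 10 CPM, the replicate number as a block, background counts (estimated from 1092 olfactory receptor genes, some of which mTEC may express) subtracted, and each library left out. Promoter sequences are from RefSeq (GRCm38.p6). A window at each RefSeq start was searched, and a gene counted if any window matched. No overlap means that the lowest library of 1 group lay above the highest of the other. Values of some genes of the lists are not reported here.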

Additional observations from a re-analysis of the deposited data

How the results depend on the processing

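Over 14 alternative settings, the 42 genes gave 585 log2 fold changes, of which 516 kept both direction and side of the threshold, 14 lost a call, 14 gained one and 41, in 18 genes, changed sign. None of the 3 called genes changed sign. The number of differing genes, 687, became 784 with RLE factors, 1045 with library size only, 2023 with DESeq2, 905 with limma voom, 1127 without a filter, 1547 with a mean of at least 10 CPM and 1054 with background counts subtracted, and lay between 376 and 922 with 1 library left out. The count of interferon response genes called higher, 1, became 2 with RLE factors, library size only, limma voom, no filter and background counts subtracted, and 3 with DESeq2 and with a mean of at least 10 CPM. It lay between 0 and 2 with 1 library left out, and the count called lower, 2, lay between 0 and 3. The cause of these changes was not tested. The median log2 fold change of the 42 genes lay between -0.31 and -0.04 in all settings. The median of all genes, 0.02, moved to 0.13 with DESeq2, -0.17 with limma voom and between -0.20 and 0.15 with 1 library left out, so the gap between the 42 genes and all genes closed with limma voom and turned without tuft-like replicate 1. Same-numbered libraries did not deviate together (correlations -0.156, -0.061 and -0.326), and the replicate numbers were not used as pairs. These correlations were not adjusted for the share of reads on no gene, so they cannot show whether same-numbered libraries shared mice. With the replicate number as a block, 737 genes differed, with 2 interferon response genes called higher and 1 lower, and Irf8 was not called (edgeR FDR 0.0547). Sign changes outside the left-out libraries were small: Oasl2 became 0.018 with RLE factors, 0.018 with DESeq2 and 0.0049 with a mean of at least 10 CPM, Ifit1 became 0.0034, 0.0017 and 0.022 in these and 0.0094 with limma voom and 0.0046 with background subtracted, and Ddx58 became 0.0037 with a mean of at least 10 CPM. Gbp7 became -0.058 with library size only, -0.067 with the replicate block and -0.010 with background subtracted. With 1 library left out, sign changes gave log2 ranges of -1.54 to 0.035 for Ifnb1, -0.92 to 0.042 for Ifnar1, -0.0080 to 0.48 for Ifnar2, -1.09 to 0.071 for Ifnlr1, -0.095 to 0.40 for Stat2, -0.25 to 0.11 for Usp18, -0.15 to 0.30 for Ifih1, -0.25 to 0.11 for Ddx58, -0.067 to 0.50 for Dhx58, -0.61 to 0.15 for Oas3, -0.27 to 0.19 for Oasl2, -0.28 to 0.049 for Eif2ak2, -0.18 to 0.17 for Ifit1, -0.65 to 0.42 for Gbp7, -0.25 to 0.40 for Parp9, -0.32 to 0.010 for Parp14, -0.37 to 0.063 for Ifi35 and -0.21 to 0.52 for Xaf1. The same settings were applied to 9 genes named from the pathway lists, a choice made after seeing the data. None of them changed sign, and Ciita, Cxcl10 and Tlr3 were called in 8 of 8 settings that kept all libraries. Nlrc5 lost its call with the replicate block (edgeR FDR 0.0868).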
